A study of Mus musculus with 12 samples.

Results

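Integrins are adhesion receptors made of an alpha and a beta chain, and 9 of their genes were followed here by symbol through every library: Itgam, Itgal and Itgb2, Itga6, Itga5 and Itgb1, and Itga4, Itga9 and Itgb7. They are 9 of the 23845 genes in the deposited tables, and all 9 passed the filter on low counts that left 15295 genes for testing. Itga6 and Itgam were picked for their values in the comparison of genotypes, so their genotype differences are given as a description with no test, and the whole set was assembled with earlier results of these data in view. RNA came from microglia of C57BL6/J mice aged 3 to 4 months, taken from Percoll gradients, with 1 animal per library and 3 libraries in each of 4 groups. The groups were CPEB1 knockout with LPS (CPEB1-KO-LPS), CPEB1 knockout without LPS (CPEB1-KO), wild type with LPS (WT-LPS) and wild type without LPS (WT). LPS, lipopolysaccharide of the bacterial outer membrane, was injected 24 h before the cells were harvested. The labels give neither the dose, the sex, the cells in which the gene is lost nor the part of it that is deleted.

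The alpha chain sets which ligand an integrin binds, and the beta chain links the receptor to talin, kindlin and the actin cytoskeleton. Itgb2 is the beta chain of leukocytes. With Itgam it forms the complement receptor that is widely used as a surface marker of microglia, and with Itgal the receptor for ICAM ligands on which lymphocytes rely. Itgb1 is the common beta chain: with Itga6 it binds laminin, with Itga5 fibronectin, and with Itga4 or Itga9 vascular adhesion molecules or tenascin and osteopontin. Itgb7 pairs with Itga4 on lymphocytes. CPEB1 is an RNA-binding protein that recognises a U-rich element in the 3′ untranslated region of mRNAs and controls their poly(A) tails and translation.

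Libraries held between 5.02 and 13.5 M expected counts (M, 1e+06 counts). The targeted gene itself was read in every library. Cpeb1 ranged from 24.0 to 40.6 TPM (transcripts per 1e+06 transcripts) in CPEB1-KO-LPS, from 17.6 to 26.4 TPM in CPEB1-KO, from 24.1 to 45.1 TPM in WT-LPS and from 15.5 to 43.25 TPM in WT, so all groups overlapped. Gene-level values cannot show a deletion of part of a gene, so each library is named by its labelled genotype. All 10 microglia markers were present in every library, but the preparations also held RNA of other cells. The summed microglia markers ranged from 656 to 2757 TPM in CPEB1-KO-LPS, 2682 to 4230 TPM in CPEB1-KO, 966 to 4457 TPM in WT-LPS and 5611 to 6377 TPM in WT. The sum of 10 neuron markers ranged from 2340 to 4296 TPM in CPEB1-KO-LPS, 3469 to 5007 TPM in CPEB1-KO, 2145 to 5727 TPM in WT-LPS and 1287 to 3420 TPM in WT. The sum of 9 neutrophil markers was 1305 to 4043 TPM in CPEB1-KO-LPS and 522 to 2930 TPM in CPEB1-KO. It was 1482 to 3167 TPM in WT-LPS and 1107 to 2734 TPM in WT. For 8 monocyte markers these ranges were 206 to 451, 234 to 529, 380 to 752 and 305 to 409 TPM, in the same order. For 10 endothelium markers they were 71.5 to 82.35, 71.4 to 107, 113 to 279 and 47.0 to 83.05 TPM. The part of these cells in the integrin values was not tested. Replicate 3 of CPEB1-KO-LPS stood apart in erythroid RNA, with 61141 TPM over 4 markers, against 6544 to 11851 TPM in the 5 other LPS libraries and 27877 to 66991 TPM in the 6 libraries without LPS. In such bulk samples, fewer cells of a type and less RNA per cell cannot be told apart.

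By transcript level per length, 3 of the 9 genes stood well above the others. In WT, Itgam averaged 173 ± 32.5 TPM (SD, n = 3), Itgb2 76.2 ± 9.27 TPM and Itgb1 56.29 ± 6.003 TPM. The WT values of Itgb2 and Itgb1 did not overlap, and neither overlapped with Itgam. Itga6 followed at 17.4 ± 4.43 TPM and Itga9 at 6.42 ± 0.133 TPM. Itgb7, Itga5, Itgal and Itga4 had WT means of 3.77, 3.73, 2.92 and 2.18 TPM, and each overlapped in range with its neighbour in this order.

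**Figure D1:**
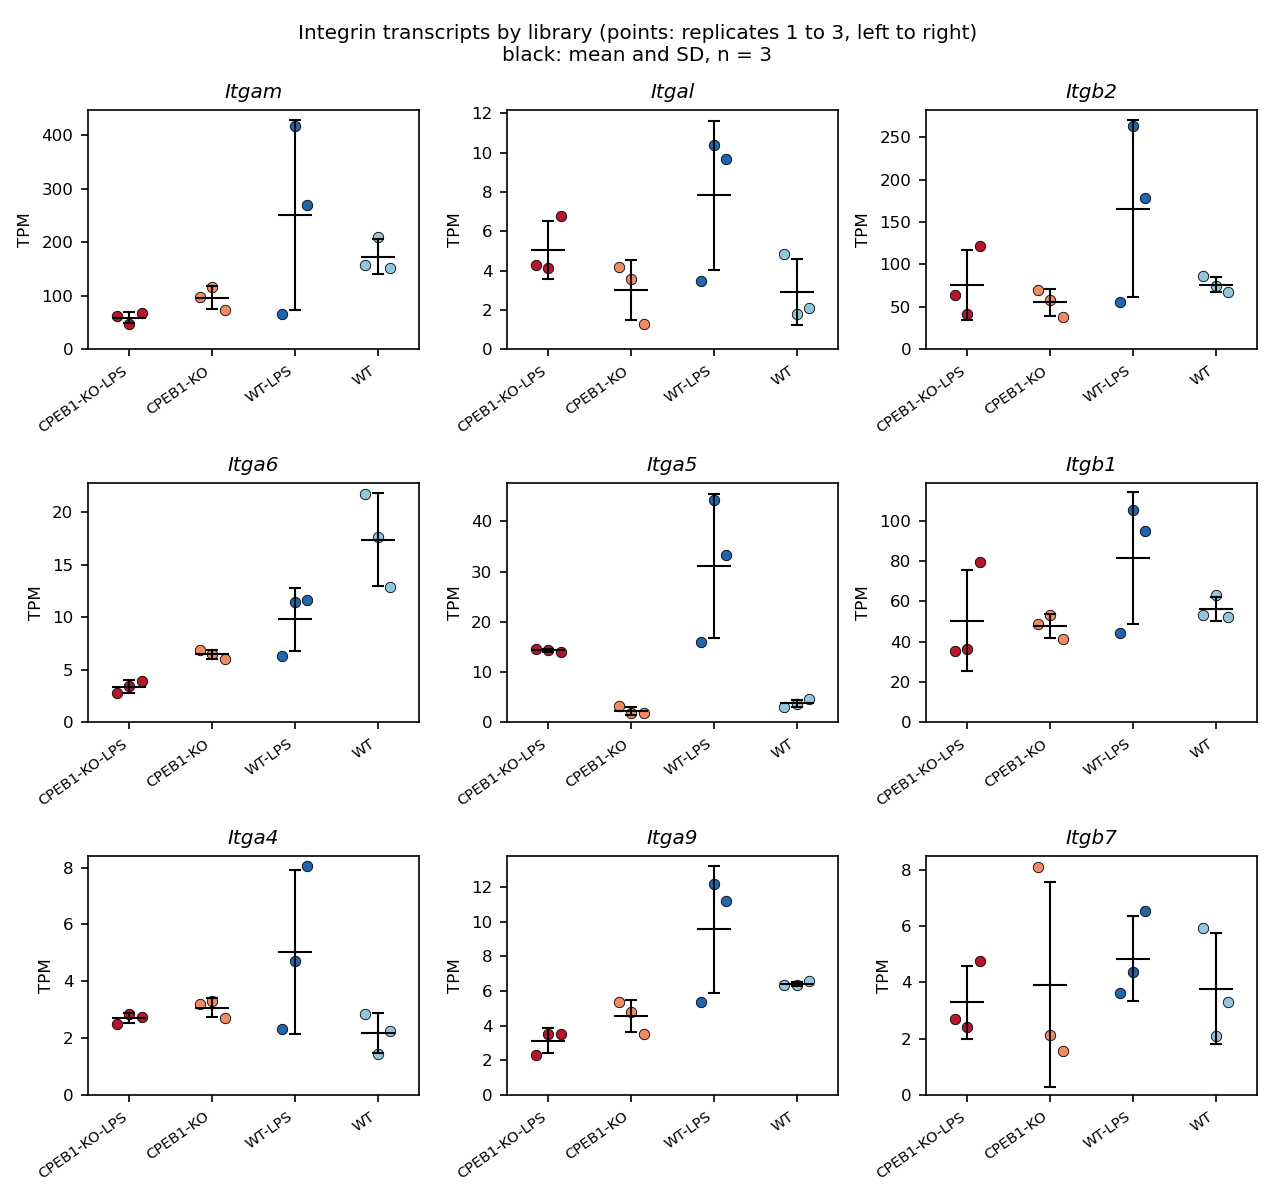
TPM of the 9 integrin genes (vertical axes) in the 12 libraries, by group; points are replicates 1 to 3 from left to right, and black bars give the mean and SD of 3 libraries. Itga5 stands higher in both LPS groups, Itga6 has its lowest values in CPEB1-KO-LPS, and replicate 1 is the lowest WT-LPS library in all 9 panels.

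LPS raised the fibronectin receptor chain Itga5 in both genotypes and lowered the laminin receptor chain Itga6 in wild type, while the other members did not pass the test. The summed microglia markers were lower in WT-LPS too, and as a share of them Itga6 overlapped between WT-LPS and WT. The comparisons used edgeR's quasi-likelihood test with Benjamini-Hochberg adjustment over all 15295 genes at a false discovery rate (FDR) of 0.05. In WT-LPS against WT, 2 of 9 members passed, beside 27.4% of all genes tested (12.4% higher and 14.9% lower). They were Itga5 and Itga6. As Itga6 was chosen on values of the same libraries, nothing is read from this count. In CPEB1-KO-LPS against CPEB1-KO, 1 of 9 passed, beside 6.22% of all genes (4.1% higher and 2.12% lower). TPM of the groups did not overlap for 2 of 9 members in wild type, Itga5 higher and Itga6 lower, beside 38.2% of all genes (27.4% higher and 10.8% lower). In knockout this held for 3 of 9, Itga5 higher and Itga6 and Itgam lower, beside 31.2% of all genes (16.2% higher and 15% lower). The median log2 fold change of the 9 members was 0.35 in wild type and -0.15 in knockout, against -0.03 and -0.00024 over all genes. Of the genes called in WT-LPS against WT, 45.4% were higher, and with limma on log2(TPM + 1) 75.7% were, where the median gene stood at 0.28 on the log2 scale. Directions and calls of Itga5 and Itga6 in wild type were the same on log2(TPM + 1).

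Itga5 had 15.9, 44.2 and 33.3 TPM in WT-LPS, against 3.04, 3.60 and 4.56 TPM in WT. Every WT-LPS library lay above every WT library. The fitted change was 6.64-fold (log2 fold change 2.73 ± 0.40, SE, n = 3 per group, adjusted p = 0.000638). In knockout, Itga5 had 14.5, 14.32 and 14.03 TPM in CPEB1-KO-LPS, against 3.20, 1.80 and 1.82 TPM in CPEB1-KO. These groups did not overlap either, and the 3 CPEB1-KO-LPS libraries lay within 1 TPM of each other. The change there was 6.45-fold (log2 fold change 2.69 ± 0.40, adjusted p = 0.00126). It passed without any 1 of the 12 libraries in both comparisons. The LPS responses of the genotypes differed by -0.04 ± 0.55 on the log2 scale (adjusted p = 0.979).

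The promoter of Itga5 is shown because it is the member that LPS moved in both genotypes. It lies on the minus strand at chr15:103366742-103367041 (RefSeq, GRCm38.p6, the assembly of the mm10 build), from 250 bases before the transcription start to 50 bases after it. Letters in capitals match GAGGAA, the core recognised by the myeloid factor PU.1, or GGGCGG, the Sp1 box, on either strand.
Itga5: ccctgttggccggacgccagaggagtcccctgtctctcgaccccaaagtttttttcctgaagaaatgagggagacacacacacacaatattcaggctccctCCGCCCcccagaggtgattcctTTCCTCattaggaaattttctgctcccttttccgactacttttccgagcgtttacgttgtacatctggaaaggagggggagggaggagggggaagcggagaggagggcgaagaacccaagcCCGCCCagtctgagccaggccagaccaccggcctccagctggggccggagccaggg
This window held 1 match to the PU.1 core, beginning 127 bases before the start, and 2 matches to the Sp1 box. Of 32851 promoter windows of 300 bases, 28.3% held the PU.1 core and 35.7% the Sp1 box. A search for the NF-kB motif on both strands found 0 matches in the promoters of the 6 members held by the table, and 5.56% of all windows held one. TGANTCA, the AP-1 motif, was matched in 1 of these 6, that of Itga9, and in 7.81% of all windows. The Itga9 window belongs to a start inside the gene as GENCODE M21 annotates it. Motifs do not overlap in the windows printed here, and a match is a description of letters.

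Itga6 had 6.30, 11.45 and 11.6 TPM in WT-LPS, against 21.7, 17.6 and 12.8 TPM in WT. The groups did not overlap, although the highest WT-LPS library came close to the lowest WT library. The fitted level was 2.29-fold lower in WT-LPS (log2 fold change -1.19 ± 0.30, adjusted p = 0.0108). Itga6 was chosen on the genotype comparison, and the libraries of that comparison also enter the LPS comparisons. Its p-values here are therefore not independent of that choice. Without WT replicate 2 the call was lost (adjusted p = 0.0519), and without both WT replicate 1 and WT-LPS replicate 1, the libraries of their groups with the most neuronal RNA, the change was -0.84 (adjusted p = 0.0721). In knockout, Itga6 had 2.74, 3.44 and 3.94 TPM in CPEB1-KO-LPS, against 6.89, 6.44 and 6.02 TPM in CPEB1-KO. These groups did not overlap, but the change did not pass (log2 fold change -0.88 ± 0.30, adjusted p = 0.110). Ordered by mean level, WT came first with 17.4 TPM, WT-LPS second with 9.78 TPM, CPEB1-KO next with 6.45 TPM and CPEB1-KO-LPS last with 3.37 TPM. Of these neighbours, WT-LPS and CPEB1-KO overlapped in range. The summed microglia markers were lower with LPS as well, at 966 to 4457 TPM in WT-LPS, against 5611 to 6377 TPM in WT. As a share of that sum, Itga6 was 0.652%, 0.257% and 0.381% in WT-LPS, against 0.375%, 0.276% and 0.229% in WT, so on this scale the groups overlapped. Itga5 on the same scale was 0.992% to 1.64% in WT-LPS, against 0.0526% to 0.0813% in WT. In wild type its TPM was higher and the sum lower, each with no overlap, so these shares could not overlap. Its share was 0.509% to 2.18% in CPEB1-KO-LPS, against 0.0571% to 0.0757% in CPEB1-KO, with no overlap. A higher share with LPS and no overlap was not particular to Itga5. It also held for Itgam, Itgal, Itgb1, Itgb2, Itga4 and Itga9 in wild type, and for Itgal, Itgb1 and Itgb2 in knockout.

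The chains of the leukocyte integrins did not pass the test in either LPS comparison, and their WT-LPS libraries were widely spread. Itgam had 65.9, 418 and 269 TPM in WT-LPS, against 157, 210.1 and 151 TPM in WT. The WT-LPS libraries fell on both sides of the WT range, and the log2 fold change was 0.19 ± 0.51 (adjusted p = 0.808). It turned to -0.52 without WT-LPS replicate 2 and was 0.71 without WT-LPS replicate 1. In knockout, Itgam had 61.4, 47.5 and 68.4 TPM in CPEB1-KO-LPS, against 98.6, 116 and 74.1 TPM in CPEB1-KO. All CPEB1-KO-LPS libraries were below the CPEB1-KO range, with a log2 fold change of -0.64 ± 0.51 that did not pass (adjusted p = 0.529).

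Itgb2, the partner of Itgam and Itgal, had 56.1, 263 and 179 TPM in WT-LPS, against 86.2, 74.65 and 67.9 TPM in WT. The log2 fold change was 0.80 ± 0.53 (adjusted p = 0.272), and the groups overlapped. In knockout Itgb2 had 63.8, 41.6 and 122 TPM in CPEB1-KO-LPS, against 70.0, 57.9 and 38.4 TPM in CPEB1-KO (log2 fold change 0.55 ± 0.53, adjusted p = 0.612). Replicate 3 of CPEB1-KO-LPS was the high library for Itgb2 and Itgb1, and it also had the highest sum of microglia markers of its group, 2757 TPM against 1133 and 656 TPM. The part of these markers in the result was not tested.

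Itgal had 3.48, 10.4 and 9.65 TPM in WT-LPS, against 4.85, 1.78 and 2.12 TPM in WT. Replicate 1 was the low WT-LPS library and replicate 1 the high WT library, so the groups overlapped (log2 fold change 1.13 ± 0.52, adjusted p = 0.117). Without WT-LPS replicate 1 it passed (log2 fold change 1.55, adjusted p = 0.0343), as it did without both replicates 1 of wild type (1.98, adjusted p = 0.0228). In knockout Itgal had 4.30, 4.11 and 6.77 TPM in CPEB1-KO-LPS, against 4.16, 3.55 and 1.28 TPM in CPEB1-KO (log2 fold change 0.82 ± 0.51, adjusted p = 0.398).

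Itga4 had 2.32, 4.70 and 8.07 TPM in WT-LPS, against 2.85, 1.44 and 2.25 TPM in WT. The groups overlapped through WT-LPS replicate 1 (log2 fold change 0.87 ± 0.35, adjusted p = 0.0784). Without that library the change passed (1.29, adjusted p = 0.00407), and it also passed without both replicates 1 of wild type (1.39, adjusted p = 0.00620). In knockout Itga4 had 2.51, 2.86 and 2.73 TPM in CPEB1-KO-LPS, against 3.20, 3.32 and 2.71 TPM in CPEB1-KO, with a log2 fold change of -0.15 ± 0.34 (adjusted p = 0.854).

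Itga9 and Itgb1 did not pass either. Itga9 had 5.38, 12.2 and 11.2 TPM in WT-LPS, against 6.34, 6.34 and 6.57 TPM in WT (log2 fold change 0.35 ± 0.36, adjusted p = 0.483). In knockout it had 2.30, 3.53 and 3.55 TPM in CPEB1-KO-LPS, against 5.37, 4.77 and 3.54 TPM in CPEB1-KO (-0.39 ± 0.36, adjusted p = 0.600). Itgb1, the shared beta chain, had 44.1, 106 and 94.8 TPM in WT-LPS, against 53.2, 63.2 and 52.5 TPM in WT (log2 fold change 0.17 ± 0.41, adjusted p = 0.784). In CPEB1-KO-LPS it had 35.5, 36.4 and 79.65 TPM, against 49.0, 53.2 and 41.1 TPM in CPEB1-KO (0.19 ± 0.41, adjusted p = 0.845). That last direction was -0.02 on the TPM scale.

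Itgb7 did not pass in either LPS comparison, and without LPS it was highest in the libraries with the most lymphocyte RNA. It had 2.69, 2.41 and 4.77 TPM in CPEB1-KO-LPS, against 8.10, 2.13 and 1.55 TPM in CPEB1-KO, and 3.63, 4.36 and 6.53 TPM in WT-LPS, against 5.94, 2.08 and 3.30 TPM in WT. Replicate 1 was the high library in both groups without LPS. The summed level of 5 B cell markers was 52.0, 11.1 and 7.41 TPM in CPEB1-KO and 45.2, 29.4 and 25.3 TPM in WT, and that of 9 T and NK cell markers 52.4, 20.1 and 15.9 TPM in CPEB1-KO and 52.8, 28.2 and 28.1 TPM in WT, so the same libraries were high. Klrb1c was at 0 in CPEB1-KO replicate 3, and Cd3g and Ms4a1 in WT-LPS replicate 1. Pax5 was at 0 in 5 libraries, all of WT-LPS and 1 each of CPEB1-KO and CPEB1-KO-LPS. In LPS groups the B cell sum was 7.29, 10.3 and 9.41 TPM in CPEB1-KO-LPS and 8.25, 15.25 and 9.89 TPM in WT-LPS. It was highest in replicate 2 in both, which was not the library with the most Itgb7. The T and NK cell sum there was 45.96, 49.1 and 65.4 TPM in CPEB1-KO-LPS and 47.9, 39.8 and 54.8 TPM in WT-LPS, and replicate 3 was highest in that sum and in Itgb7 in both groups. The LPS changes of Itgb7 were 0.03 ± 0.58 in wild type (adjusted p = 0.972) and -0.19 ± 0.58 in knockout (adjusted p = 0.887), on the log2 scale. The knockout value turned to 0.95 without CPEB1-KO replicate 1, to 0.01 without CPEB1-KO-LPS replicate 1 and to 0.05 without CPEB1-KO-LPS replicate 2. The part of lymphocyte RNA in these changes was not tested.

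**Figure D2:**
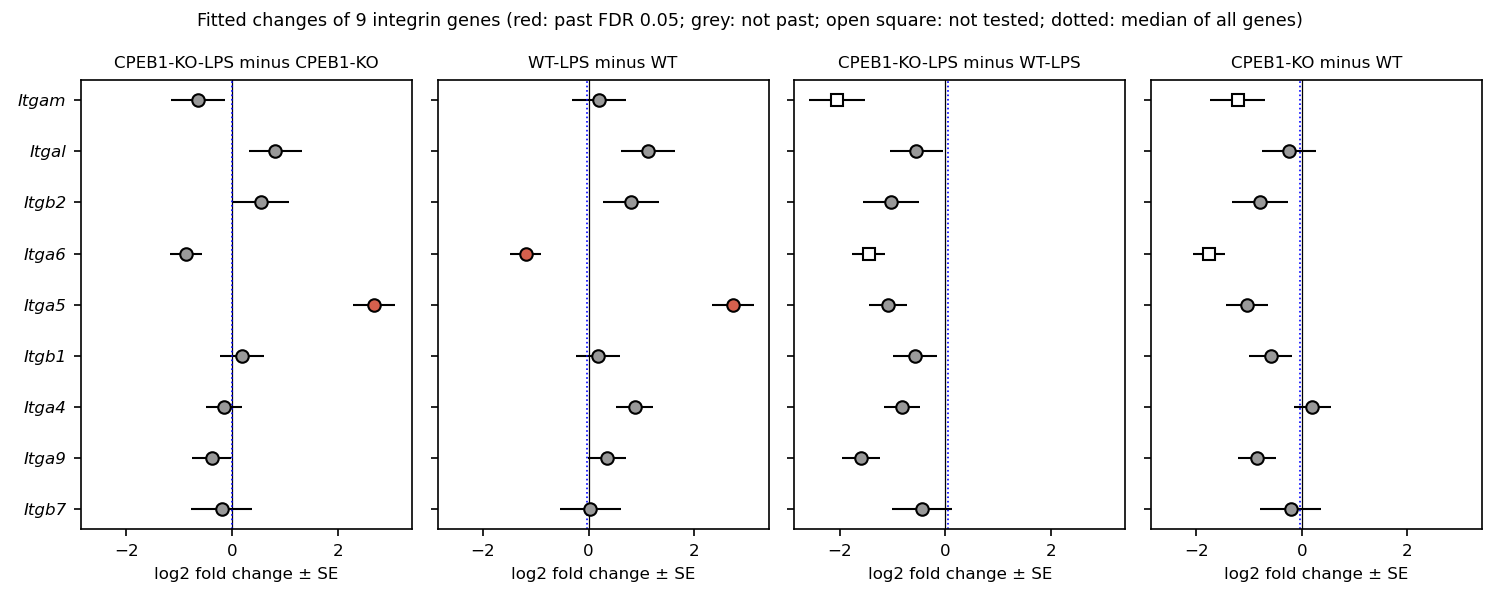
Log2 fold changes (horizontal axes, with SE as bars) of the 9 genes in 4 comparisons; red points passed FDR 0.05, grey points did not, open squares were not tested, and the dotted line is the median of all genes. Itga5 is red in both LPS panels and Itga6 in that of wild type, and in CPEB1-KO-LPS minus WT-LPS all 9 values are below 0.

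The genotype comparison concerned first Itga6 and Itgam, which were chosen on it. Both had lower values in the libraries labelled CPEB1-KO, as the values per library above show. For Itga6 the 3 CPEB1-KO libraries, at 6.02 to 6.89 TPM, lay below the 3 WT libraries, at 12.8 to 21.7 TPM, and the 3 CPEB1-KO-LPS libraries, at 2.74 to 3.94 TPM, below the 3 WT-LPS libraries, at 6.30 to 11.6 TPM. The log2 difference was -1.77 ± 0.30 (SE) without LPS and -1.45 ± 0.31 with LPS, and -1.61 ± 0.22 over 6 libraries per genotype. For Itgam the CPEB1-KO libraries, at 74.1 to 116 TPM, lay below WT, at 151 to 210.1 TPM, while with LPS the CPEB1-KO-LPS libraries, at 47.5 to 68.4 TPM, overlapped with WT-LPS, at 65.9 to 418 TPM, through WT-LPS replicate 1. Its log2 difference was -1.21 ± 0.52 without LPS and -2.04 ± 0.53 with LPS, and -1.63 ± 0.38 over both. On log2(TPM + 1), where the median gene stood at 0.26 in CPEB1-KO against WT, the differences without LPS were -1.27 for Itga6 and -0.84 for Itgam.

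Without LPS, the summed microglia markers were lower and the neuron markers higher in CPEB1-KO than in WT with no overlap, while with LPS both sums overlapped between genotypes. The members were therefore also set against the summed microglia markers of the same library. Itgam was 2.33%, 3.69% and 2.76% of the microglia marker sum in CPEB1-KO, against 2.72%, 3.29% and 2.69% in WT, and these ranges overlapped. Itga6 was 0.163%, 0.204% and 0.224% of that sum in CPEB1-KO, against 0.375%, 0.276% and 0.229% in WT, with no overlap but little distance between the nearest libraries. With LPS, Itgam was 5.42%, 7.25% and 2.48% of the sum in CPEB1-KO-LPS, against 6.82%, 9.38% and 8.85% in WT-LPS, and both ranges overlapped. Itga6 was 0.242%, 0.525% and 0.143% of it in CPEB1-KO-LPS, against 0.652%, 0.257% and 0.381% in WT-LPS, and overlapped too. Without LPS, shares of the microglia sum were higher in CPEB1-KO with no overlap for Itgb1, Itga9 and Itga4. The sum itself was lower in CPEB1-KO with no overlap, which raises any share of it. On TPM alone, 26.7% of all genes were already higher in CPEB1-KO with no overlap. Shares were not computed for all genes, so nothing is read from the number of members. Itgb1 was 1.16% to 1.69% in CPEB1-KO, against 0.920% to 0.991% in WT, Itga9 0.127% to 0.151% in CPEB1-KO, against 0.0994% to 0.117% in WT, and Itga4 0.0757% to 0.105% in CPEB1-KO, against 0.0226% to 0.0493% in WT. Shares of Itga5, Itgal, Itgb2 and Itgb7 overlapped, but their means were higher in CPEB1-KO as well. Itga5 averaged 0.0669% in CPEB1-KO against 0.0634% in WT, Itgal 0.0862% against 0.0499%, Itgb2 1.64% against 1.29% and Itgb7 0.106% against 0.0647%. Itgam averaged 2.93% in CPEB1-KO against 2.90% in WT. Of the members with a fitted difference below 0 without LPS, only Itga6 was also lower in CPEB1-KO as a mean share. For the others the direction depended on the scale. Itga6 was chosen for its low values in this contrast, so nothing is read from its standing apart. The part of microglia content in the values per library was not tested.

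**Figure D3:**
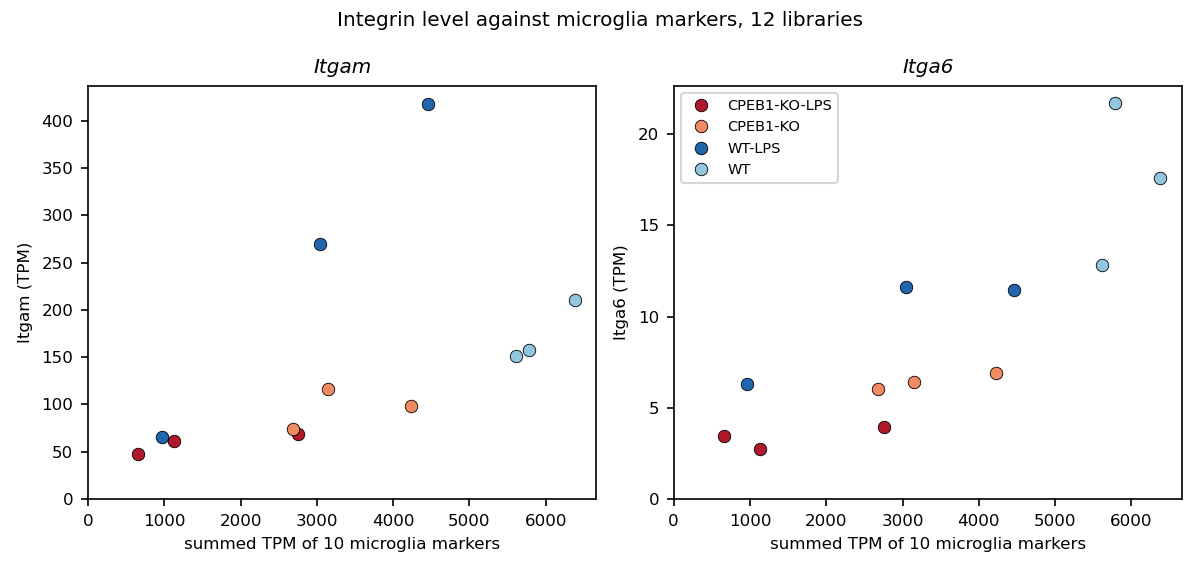
TPM of Itgam and Itga6 (vertical axes) against the summed TPM of 10 microglia markers (horizontal axes) in the 12 libraries, coloured by group. CPEB1-KO libraries lie at 2682 to 4230 TPM of microglia markers, to the left of WT at 5611 to 6377 TPM.

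Of the 7 other members, 0 passed in either genotype comparison by edgeR. Without LPS, 0.0327% of all genes passed, Itga5 and Itga9 were the 2 members with an unadjusted p under 0.05, and DESeq2 and limma on log2(TPM + 1) called 0. With LPS, 0.00654% of all genes passed, 3 members had an unadjusted p under 0.05 (Itga4, Itga5 and Itga9), limma called 0, and DESeq2 called 1, Itga9 (log2 difference -1.67, adjusted p = 0.0163). Over all genes, DESeq2 called 519 without LPS and 90 with LPS. Itga9 was at -1.59 ± 0.36 in CPEB1-KO-LPS against WT-LPS (adjusted p = 0.361 by edgeR), and its libraries, at 2.30 to 3.55 TPM in CPEB1-KO-LPS, lay below those of WT-LPS, at 5.38 to 12.2 TPM. Itga5 was at -1.08 ± 0.37 there (adjusted p = 0.422), with 14.03 to 14.5 TPM in CPEB1-KO-LPS, against 15.9 to 44.2 TPM in WT-LPS. Groups did not overlap for 3 of 9 members, all lower in knockout, in each of the genotype comparisons. Without LPS these were Itga6, Itga9 and Itgam, beside 31.8% of all genes without overlap (26.7% higher and 5.09% lower). With LPS they were Itga5, Itga6 and Itga9, beside 12.5% of all genes (3.73% higher and 8.75% lower). As Itga6 and Itgam were chosen on this contrast, nothing is read from these counts. No share of all genes was counted under the unadjusted threshold, so nothing is read from unadjusted counts of members, here or below.

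Averaged over LPS and no LPS, 0.111% of all genes passed (0.0196% higher and 0.0915% lower) and 0 of the 7 other members did. Itga5 stood at -1.06 ± 0.26 (adjusted p = 0.286), Itga9 at -1.23 ± 0.27 (adjusted p = 0.181) and Itgb2 at -0.91 ± 0.37 (adjusted p = 0.406), and these 3 had an unadjusted p under 0.05. DESeq2 called 2 of the 7, Itga5 (adjusted p = 0.0232) and Itga9 (adjusted p = 0.00492), and limma on log2(TPM + 1) called 0. Over all genes, DESeq2 called 108 and limma on log2(TPM + 1) called 16. Without WT-LPS replicate 1, edgeR called Itga5 (adjusted p = 0.0427). Without both replicates 1 of wild type it called Itga5 (adjusted p = 0.00804) and Itga9 (adjusted p = 0.0162). The smallest average differences were those of Itga4, at -0.32 ± 0.28, Itgb7, at -0.32 ± 0.40, and Itgal, at -0.40 ± 0.35. Without LPS, Itgal was at -0.24 ± 0.52 (adjusted p = 0.823) and turned to 0.03 on log2(TPM + 1).

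The difference of LPS responses between genotypes passed for 0 of the 7 members, and 0.00654% of all genes passed. None had an unadjusted p under 0.05, and DESeq2 and limma on log2(TPM + 1) called 0. Their values ran from -1.02 ± 0.49 for Itga4 (adjusted p = 0.335) to 0.02 ± 0.59 for Itgb1 (adjusted p = 0.991), which was -0.45 on log2(TPM + 1). For the 2 genes not tested, the difference was 0.31 ± 0.42 for Itga6 and -0.83 ± 0.73 for Itgam, which was -0.12 without WT-LPS replicate 2 and -1.37 without WT-LPS replicate 1.

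Ratios of an alpha to a beta chain within a library do not depend on the scaling between libraries. Itgam per Itgb2 was 0.962, 1.14 and 0.562 in CPEB1-KO-LPS, 1.41, 2.01 and 1.93 in CPEB1-KO, 1.18, 1.59 and 1.51 in WT-LPS and 1.82, 2.81 and 2.23 in WT. In each genotype the LPS libraries lay below those without LPS. Itga6 per Itgb1 was 0.0772, 0.0945 and 0.0495 in CPEB1-KO-LPS, 0.141, 0.121 and 0.146 in CPEB1-KO, 0.143, 0.108 and 0.122 in WT-LPS and 0.408, 0.278 and 0.244 in WT. WT stood above the 3 other groups, and CPEB1-KO and WT-LPS overlapped. Itga5 per Itgb1 averaged 0.326 ± 0.130 (SD, n = 3) in CPEB1-KO-LPS and 0.0478 ± 0.0160 in CPEB1-KO, 0.377 ± 0.0364 in WT-LPS and 0.0670 ± 0.0172 in WT. Itgal per Itgb2 averaged 0.0739 ± 0.0224 in CPEB1-KO-LPS and 0.0513 ± 0.0157 in CPEB1-KO, 0.0518 ± 0.0115 in WT-LPS and 0.0371 ± 0.0170 in WT, and these groups overlapped.

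**Figure D4:**
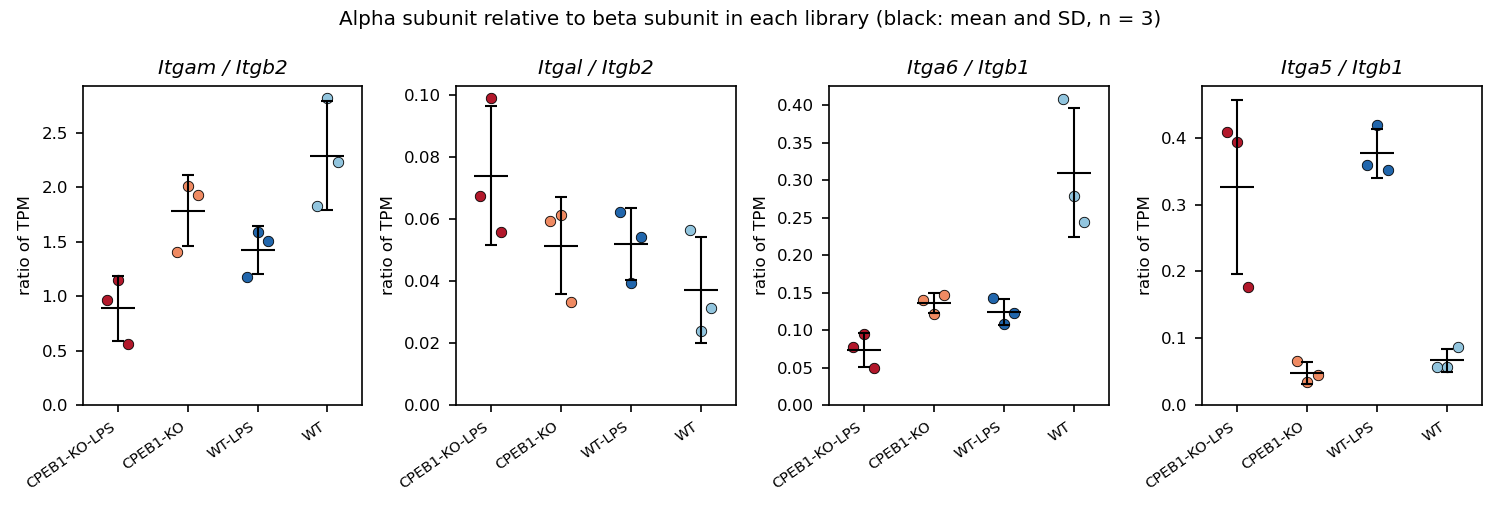
Ratio of the TPM of an alpha chain to that of its beta chain (vertical axes) in the 12 libraries by group, with the mean and SD of 3 libraries in black. Itgam per Itgb2 lies between 0.562 and 1.14 in CPEB1-KO-LPS and between 1.82 and 2.81 in WT, and Itga6 per Itgb1 is at least 0.244 in WT and at most 0.146 in the 3 other groups.

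The promoter of Itgam is printed because it is the marker integrin of microglia. It lies on the plus strand at chr7:128062390-128062689 (RefSeq, GRCm38.p6), over the same span around the start, with capitals as above.
Itgam: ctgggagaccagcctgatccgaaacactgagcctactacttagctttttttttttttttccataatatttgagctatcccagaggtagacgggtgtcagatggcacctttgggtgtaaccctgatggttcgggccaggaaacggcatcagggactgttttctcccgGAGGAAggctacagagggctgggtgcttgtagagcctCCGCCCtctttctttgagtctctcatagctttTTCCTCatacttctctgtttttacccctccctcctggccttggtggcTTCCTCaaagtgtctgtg
It held 3 matches to the PU.1 core, beginning 84 and 15 bases before the start and at base 33 of the transcript, and 1 match to the Sp1 box. Since CPEB1 binds 3′ untranslated regions, the last 200 bases of the longest annotated 3′ untranslated region of each member were searched for the cytoplasmic polyadenylation element TTTTAT (GENCODE M21, mm10). It was found in 2 of the 8 members with a region of that length, Itgam and Itgal, and in 22.7% of 17961 genes. These sites are shown with 10 bases on each side and the element in capitals, at chr7:128118311-128118336 for Itgam and chr7:127335086-127335111 for Itgal, both on the plus strand.
Itgam: aatgttgtctTTTTATtaatatgctc
Itgal: ttttgttttgTTTTATgttttgtttt
The element began 171 bases before the end of the transcript in Itgam and 43 bases before it in Itgal. In the window of Itga6 there was no match, nor elsewhere in its 3′ untranslated region of 927 bases. Itga4, whose region of 6508 bases is the longest of the members, had 9 matches in all and 0 in the last 200 bases. Absence of a match concerns these letters in these windows.

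The other genes of integrin adhesion were read against the share of all genes called. Over 5 lists, 20 of 74 genes tested passed in WT-LPS against WT, beside 27.4% of all genes, and 8 of 74 in CPEB1-KO-LPS against CPEB1-KO, beside 6.22%, so nothing particular to integrin adhesion is read from the counts. The lists were 17 other subunits, 11 ligands on cell surfaces, 18 ligands of the matrix, 26 activators and adaptors and 7 inhibitors. Of the 15 other subunits tested, 1 rose and 4 fell in WT-LPS against WT, with a median of -0.57, and 1 rose and 0 fell in CPEB1-KO-LPS against CPEB1-KO, with a median of -0.21. The medians of all genes are given above. The subunit that rose in both was Itgad, an alpha partner of Itgb2 (log2 fold change 3.11 ± 0.73, adjusted p = 0.00774, in wild type and 4.11 ± 0.77, adjusted p = 0.00689, in knockout), with group sums of 131 counts in WT-LPS and 8 in WT, and of 88 in CPEB1-KO-LPS and 5 in CPEB1-KO. Itgb5, the partner of the alpha-v chain, exceeded Itgam in WT at 277 ± 25.9 TPM, and fell in WT-LPS to 105 ± 61.1 TPM (log2 fold change -1.75 ± 0.52, adjusted p = 0.0251). Its change in knockout did not pass (-1.06, adjusted p = 0.263). Itga10, a collagen receptor chain, and Itgae, the other partner of Itgb7, fell in WT-LPS, with log2 fold changes of -2.64 (adjusted p = 0.000437) for Itga10 and -2.72 (adjusted p = 0.00582) for Itgae. Both levels were low. Itga10 averaged 0.75 TPM in WT-LPS and 3.66 TPM in WT, and Itgae 0.137 TPM in WT-LPS and 0.727 TPM in WT. In knockout, Itga10 was at -0.79 (adjusted p = 0.205) and Itgae at -0.11 (adjusted p = 0.925).

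Of 11 cell-surface ligands, 1 rose and 2 fell in wild type and 1 rose and 1 fell in knockout. The gene that rose in both was Icam1, the ligand of the Itgal and Itgam receptors. It averaged 124 ± 74.9 TPM in WT-LPS and 10.5 ± 1.81 TPM in WT (log2 fold change 3.21 ± 0.65, adjusted p = 0.00367), and 77.3 ± 64.6 TPM in CPEB1-KO-LPS and 9.22 ± 3.32 TPM in CPEB1-KO (3.21 ± 0.65, adjusted p = 0.0103). The junction molecule Jam3 fell in WT-LPS (-0.86, adjusted p = 0.0151) and Jam2 in CPEB1-KO-LPS (-1.28, adjusted p = 0.0181). In the other genotype neither passed, with Jam3 at -0.31 in knockout (adjusted p = 0.482) and Jam2 at -0.67 in wild type (adjusted p = 0.0946). Cd209a, a lectin of dendritic cells, had 2 counts in WT-LPS and 47 in WT, a scaled ratio of 0.0241 (95% counting interval 0.00283 to 0.0920) (adjusted p = 0.0119). In knockout Cd209a had 12 counts in CPEB1-KO-LPS and 62 in CPEB1-KO, a ratio of 0.189 (0.0929 to 0.355), and did not pass (adjusted p = 0.179).

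Of 16 matrix ligands tested, 3 rose and 4 fell in wild type and 2 rose and 0 fell in knockout. Lamc1, the laminin gamma chain shared by most laminins, rose in both, with 11.4 ± 2.56 TPM in WT-LPS and 3.86 ± 0.316 TPM in WT (log2 fold change 1.19 ± 0.19, adjusted p = 0.00123), and 9.22 ± 0.332 TPM in CPEB1-KO-LPS and 4.95 ± 0.442 TPM in CPEB1-KO (0.94 ± 0.19, adjusted p = 0.0105). Spp1, osteopontin, rose in wild type (2.33, adjusted p = 0.000684) and was at 1.10 in knockout (adjusted p = 0.0652). Vtn, vitronectin, fell in wild type (-1.27, adjusted p = 0.00672) and was at -0.13 in knockout (adjusted p = 0.841). Fga, a fibrinogen chain, had 126 counts in CPEB1-KO-LPS and 3 in CPEB1-KO, 41.1 times as many after scaling (95% counting interval 13.8 to 202) (adjusted p = 0.00613). In wild type Fga had 42 counts in WT-LPS and 4 in WT, 5.94 times as many (2.16 to 22.8). That change was in the same direction and did not pass (adjusted p = 0.0660). Counting intervals cover counting error only.

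Of 25 activators and adaptors tested, 3 rose and 2 fell in wild type and 2 rose and 1 fell in knockout. Fgr, a Src-family kinase that acts downstream of Itgb2 in myeloid cells, rose in both. Its log2 fold changes were 3.81 ± 0.48 in wild type (adjusted p = 0.000300) and 3.22 ± 0.46 in knockout (adjusted p = 0.000987). Rasgrp2, an activator of the Rap GTPases, fell in wild type (-1.53, adjusted p = 0.00812), and Tln2, a talin, in knockout (-0.77, adjusted p = 0.0242). In the other genotype neither passed, with Rasgrp2 at -0.62 in knockout (adjusted p = 0.353) and Tln2 at -0.41 in wild type (adjusted p = 0.110). Of the 7 inhibitors, edgeR called 0 in either LPS comparison. At an unadjusted p under 0.05 there was 1 in wild type (Flna) and 3 in knockout (Sharpin, Flna and Cytip), and DESeq2 called 0 and 1. Over the 74 genes of the 5 lists, 0 passed in either genotype comparison, with 19 at an unadjusted p under 0.05 without LPS and 14 with LPS, and DESeq2 called 3 and 0. In the difference of LPS responses 0 of these 74 passed, 7 had an unadjusted p under 0.05, and DESeq2 called 1, Itga10. No share of all genes was counted under the unadjusted threshold, so nothing is read from these unadjusted counts.

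The members differed in which genes followed a like course over the 12 libraries, measured as the root mean square (RMS) difference of log2 CPM (scaled counts per 1e+06 counts) after subtracting each gene's mean. Genes closest to Itgam were Ugt1a7c (RMS 0.41), Nckap1l (0.42) and Sipa1 (0.42), where the spread of Itgam itself was 1.00. Those closest to Itga6, with a spread of 1.01, were Qprt (0.41), Golm1 (0.43) and Arl11 (0.46). Itga5, with the widest spread of 1.48, was followed most closely by Soat2 (0.23), Mmp19 (0.32) and Ccdc86 (0.38). Closest to Itgb2 were Gusb (0.19), Lcp1 (0.20) and Pik3cg (0.21), and to Itgb1 Mob3a (0.13), Znrf2 (0.15) and Cyp4v3 (0.15). For Itgb7 they were Ifi203 (0.34), Nkg7 (0.38), a gene of cytotoxic lymphocytes, and Mndal (0.38). Closest to Itga9 were Txnip, Mertk and Dpy19l4, to Itgal Tmem106a, Trim21 and Dna2, and to Itga4 Bdp1, Nup153 and Ino80d, with RMS values of 0.23 to 0.36. Among the members the closest pair was Itgb1 and Itgb2 (0.38), followed by Itga9 and Itgb1 (0.43), and Itgam was closer to Itga9 (0.46) than to its partner Itgb2 (0.60). Libraries share depth and cell content, so these values describe a common course and no more.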

How the data were processed

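The authors deposited a table of expected counts per gene, not normalised between libraries, and a table of TPM, which sums to 1e+06 per library within rounding. Per the submitters' processing notes, cutadapt, RSEM and the mm10 build were used, and per the labels' protocols libraries were poly(A)-based. For versions and aligner, not given in the sources used here. Symbols that a spreadsheet had made into dates (27) were told apart by accession. Expected counts were rounded, filtered with filterByExpr by group and fitted with edgeR 4.0.16 (R 4.3.3, TMM scaling, 1 mean per group over 12 libraries, 8 residual degrees of freedom). The average genotype difference came from an additive model of genotype and LPS. SE is the absolute log2 fold change divided by the square root of F. Alternatives used DESeq2 1.42.0 and limma 3.58.1. The fit was tested on simulated data. Each library came from 1 animal. Members and lists were chosen with earlier results of these data known. Named were all members, Cpeb1, up to 4 genes per list with the smallest p in an LPS comparison, and the 3 genes most like each member (smallest RMS difference, predicted genes left out). One gene that this rule names is not reported here. Genes named for an unadjusted p under 0.05 were chosen after their values were seen. Same-numbered WT and WT-LPS libraries deviated together (correlations of 0.378, 0.149 and 0.176), and in no other comparison were all such correlations over 0.1 (lowest -0.312); blocking by number changed no member's call.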

Additional observations from a re-analysis of the deposited data

How the results depend on the processing

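Members kept their direction and call in most fits. The LPS call of Itga5 held in all. Members tested that passed in WT-LPS against WT numbered 2, against 1 with limma on log2(TPM + 0.1), where Itga6 was at -0.84 (adjusted p = 0.0523), and 1 to 4 without 1 library. In the genotype comparisons 0 of 7 passed, against 1 with LPS and 2 on average by DESeq2, 0 to 1 on average without 1 library, and 1 without LPS and 2 on average without WT replicate 1 and WT-LPS replicate 1. That last pair was chosen after seeing the data. Itga6 without LPS moved from -1.77 to -1.27 on log2(TPM + 1). Its difference of LPS responses, 0.31, turned to -0.086 with limma on log2(TPM + 0.1), to -0.019 without WT-LPS replicate 1 (up to 0.53 without another library) and to -0.016 without both replicates 1. The cause of these moves was not tested.

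Counts over all genes moved more. WT-LPS against WT had 4185, against 2592 when fitted on those 6 libraries alone and 2714 to 4724 without 1 library (lowest without WT-LPS replicate 3). For LPS in knockout the count was 952, against 1655 by DESeq2 and 355 to 1132 without 1 library, and 1287 without both replicates 1 of wild type (607, 355 and 385 without CPEB1-KO replicates 1, 2 and 3, and 628 and 563 without CPEB1-KO-LPS replicates 1 and 2). CPEB1-KO against WT had 5, against 519 by DESeq2, 11 with no filter, 9 with limma on log2(TPM + 1), 3 with the replicate block, 2349 without both replicates 1 and 2 to 1292 without 1 library (highest without WT replicate 1). CPEB1-KO-LPS against WT-LPS had 1, against 90 by DESeq2, 3 with no filter, 4 and 9 with limma on log2(TPM + 1) and log2(TPM + 0.1), 4 without both replicates 1 and 1 to 11 without 1 library (highest without WT-LPS replicate 1). The average genotype difference had 17, against 108 by DESeq2, 10 with the replicate block, 1125 without both replicates 1 and 5 to 47 without 1 library (lowest without CPEB1-KO-LPS replicate 2, highest without CPEB1-KO-LPS replicate 3). Of its calls 17.6% were higher, and 37.5% with limma on TPM. The difference of LPS responses had 1, against 0 with RLE scaling and with limma on log2(TPM + 0.1), 301 by DESeq2, 2 with limma on log2(TPM + 1), 450 without both replicates 1 and 0 to 441 without 1 library (highest without WT replicate 1). The replicate block changed no member's call. Among members that did not pass, leaving out 1 library turned the LPS change of Itgam, Itgb1 and Itgb7 in wild type and of Itgb1, Itgb2 and Itgb7 in knockout, and the genotype difference without LPS of Itgal and Itgb7. For the difference of LPS responses, it turned the values of Itga5, Itgal, Itgb1, Itgb2 and Itgb7, beside that of Itga6 given above. Itgb7 had the fewest counts, 21 to 125 per library, and the part of depth in its spread was not tested.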
